A study of Mus musculus with 3 samples.

Results

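Kainate receptors are ionotropic glutamate receptors built from the subunits GluK1 to GluK5, encoded by Grik1 to Grik5, and the Neto proteins are transmembrane proteins that bind them. The 5 Grik genes and both Neto genes were taken from the count tables by their symbols, 7 genes of 32531 gene rows, and all 7 had a row. The libraries came from translating ribosome affinity purification (TRAP) of cerebral cortex from untreated adult Kcnip2-EGFP/Rpl10a (NIDA115) mice of strain C57BL/6J. In this line ribosomal protein L10a carries a green fluorescent tag under the regulatory sequences of Kcnip2, and an antibody to the tag pulls down ribosomes with their messenger RNA. The 3 libraries form 1 group of immunopurified samples, numbered as replicates in their titles. The labels used here state neither sex, exact age nor the number of animals behind a library, nor whether the libraries came from separate animals, so the spread between them may be technical. No input or untagged library was analysed here, so levels in the immunoprecipitate are given and enrichment over whole cortex is not. Which cortical cells carry the tag in this line was not measured by these files.

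GluK1, GluK2 and GluK3 can form working channels on their own, whereas GluK4 and GluK5, which bind kainate with high affinity, reach the surface and conduct only together with one of them. Kainate receptors sit on both sides of cortical and hippocampal synapses, where they modulate transmitter release and carry slow, small synaptic currents, and some of their actions run through G proteins rather than ion flow. Neto1 and Neto2 slow the decay of kainate receptor currents and alter agonist affinity, and Neto1 has also been linked to NMDA receptors. The pore loop of GluK1 and GluK2 holds the Q/R site, a glutamine codon that the enzyme ADAR2, encoded by Adarb1, can convert to an arginine codon in the RNA, which lowers calcium permeability.

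The coding stretches that hold this codon in Grik1 and Grik2, and the codon at the matching position in Grik3, Grik4 and Grik5, are shown. The stretches compare the 5 subunits at the pore and place the codon on the genome. They were read 5′ to 3′ on the coding strand from GENCODE M21 transcripts with the longest coding sequence. Each has 57 bases, and the capitals mark the codon at the Q/R position.
Grik1: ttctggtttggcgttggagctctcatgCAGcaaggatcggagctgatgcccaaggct
Grik2: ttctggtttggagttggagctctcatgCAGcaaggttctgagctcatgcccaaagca
Grik3: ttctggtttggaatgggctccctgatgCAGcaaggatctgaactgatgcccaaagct
Grik4: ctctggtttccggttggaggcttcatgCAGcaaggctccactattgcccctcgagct
Grik5: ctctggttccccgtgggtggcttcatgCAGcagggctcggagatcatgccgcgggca
The codon was CAG in all 5 reference transcripts. On the mm10 build it lies at chr16:87940542-87940544 in Grik1 (minus strand, exon 13 of 18), chr10:49244329-49244331 in Grik2 (minus strand, exon 13 of 17) and chr4:125691207-125691209 in Grik3 (plus strand, exon 12 of 16). In Grik4 it lies at chr9:42547623-42547625 (minus strand, exon 16 of 21), and in Grik5 at chr7:25022497-25022499 (minus strand, exon 15 of 20). The stretches of Grik1, Grik2 and Grik3 run across an exon junction into the next exon, and those of Grik4 and Grik5 lie within 1 exon. Grik1 and Grik2 differed at 6 of the 57 bases, Grik3 differed from each of them at 10, and Grik4 and Grik5 differed from each other at 16. Across the whole coding sequence Grik1, Grik2 and Grik3 were 69.7% to 72.04% identical in pairs, Grik4 and Grik5 were 70.6% identical, and pairs across the 2 classes were 52.3% to 58.2% identical. Counts per gene carry no base calls, so editing of these codons was not measured.

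The genes are spread over 7 chromosomes and are long. In mm10 coordinates, Grik1 lies on chromosome 16 from 87895900 to 88290265, Grik2 on chromosome 10 from 49094833 to 49788766, and Grik3 on chromosome 4 from 125490700 to 125714173. Grik4 lies on chromosome 9 from 42518135 to 42944493, Grik5 on chromosome 7 from 25009849 to 25072346, and Neto2 on chromosome 8 from 85636588 to 85700924. Neto1 lies on chromosome 18. The union of annotated exons is 13246 bases for Grik2, 8973 for Grik3, 8352 for Neto1, 6721 for Grik1, 6129 for Neto2, 5962 for Grik4 and 5168 for Grik5. Of the annotated neighbours, an antisense gene covers 219 exonic bases of Neto1 on the opposite strand, and small RNA genes cover 59 exonic bases of Grik4 and 20 of Neto2. How strand was handled in the counting is not stated in the labels or headers, so over those 219 of 8352 exonic bases reads of Neto1 may include reads of its antisense neighbour.

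The libraries held 11602248 to 14174384 gene counts. The 5 Grik genes together took 2361, 2931 and 2739 counts in replicates 1, 2 and 3, which is 0.0203%, 0.0215% and 0.0193% of gene counts, and the Neto genes took 5974, 6194 and 7077 counts. Levels are given as CPM, counts per 1000000 counts of the TMM-scaled library size, and a count of 3, the limit that a count of 0 allows, corresponded to 0.213 to 0.256 CPM. Markers fixed for the cell types of cortex gave summed levels of 33725 to 38687 CPM for 5 pan-neuronal genes, 5960 to 7985 CPM for 5 glutamatergic and 2107 to 2485 CPM for 7 GABAergic genes. The sums were 115 to 187 CPM for 5 astrocyte genes, 378 to 507 for 5 oligodendrocyte genes, 38.6 to 66.98 for 4 oligodendrocyte precursor genes, 30.3 to 50.7 for 5 microglial genes and 3.68 to 8.05 for 4 endothelial genes. Of the endothelial markers only Flt1 reached 1 CPM in every library, and Cldn5 had 0 counts in replicates 2 and 3. A further list of 5 markers of neighbouring hippocampus and striatum summed to 64.2 to 84.5 CPM, and 4 of them were detected in every library. Whether RNA from those regions was included was not tested. Single genes carried the pan-neuronal and glutamatergic sums. Without Snap25 the pan-neuronal genes summed to 2345 to 2675 CPM, and without Camk2a the glutamatergic genes summed to 454 to 608 CPM. That was below the GABAergic sum without its own leading gene Gad2, 1368 to 1704 CPM. The GABAergic list is the longer, at 7 genes against 5. By the median gene per kilobase the levels were 68.7 CPM for pan-neuronal, 57.6 for GABAergic and 41.8 for glutamatergic genes. Without a length divisor the order of these lists was the other way, with medians of 200 CPM for glutamatergic and 190 CPM for GABAergic genes. The glutamatergic marker Emx1 was not detected in every library. Some glial RNA was present. In RNA pooled over many cells, fewer cells of a type and less RNA per cell cannot be told apart.

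All 7 genes reached the detection limit of 1 CPM in every library, as did 37.3% of all gene rows. The Neto genes were the highest of the 7 and Grik4 the lowest, and the levels by library are given in turn for the subunits that can form channels alone, the subunits that need a partner, and the Neto genes. For comparison, the 12130 genes above this limit had a median of 21.3 CPM, and those with an annotated length had a median of 4.79 CPM per kilobase of exon.

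Grik3 was the most abundant kainate subunit gene by counts. It had 74.1, 90.5 and 79.3 CPM in replicates 1, 2 and 3, a mean of 81.3 ± 8.37 CPM (SD, n = 3). Replicate 2 was the highest library and the other two lay close together. Per kilobase of exon the level of Grik3 was 9.06 ± 0.932 CPM, above 67.0% of detected genes.

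Grik2, which encodes the most widely studied kainate subunit of the hippocampus, followed by counts. It had 65.7, 54.4 and 57.6 CPM in replicates 1, 2 and 3, a mean of 59.2 ± 5.82 CPM. Replicate 1 was the highest library for Grik2, whereas for Grik3 it was the lowest. With the longest annotated exons of the 7, its level per kilobase was 4.47 ± 0.440 CPM, above 48.2% of detected genes and near their median. Without a length divisor Grik2 was above 73.8% of detected genes.

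Grik1, whose subunit has been tied to interneurons in studies of rodent brain, was well below both. It had 17.4, 10.1 and 12.4 CPM in replicates 1, 2 and 3, a mean of 13.3 ± 3.72 CPM, from 204, 137 and 175 counts. The level in replicate 1 was 1.72-fold that in replicate 2, and their exact 95% counting intervals, 15.1 to 19.9 CPM and 8.49 to 11.96 CPM, did not overlap. The same held for the highest and lowest library of every other member. Per kilobase of exon Grik1 was at 1.98 ± 0.553 CPM, above 26.9% of detected genes.

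Of the subunits that need a partner, Grik5 was abundant and Grik4 was scarce. Grik5 had 38.5, 55.3 and 41.0 CPM in replicates 1, 2 and 3, a mean of 44.95 ± 9.06 CPM. Replicate 2 stood above the other two, as it did for Grik3. With the shortest annotated exons of the 7, Grik5 reached 8.70 ± 1.75 CPM per kilobase, above 65.8% of detected genes and within the spread of Grik3.

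Grik4 had 5.54, 6.13 and 3.68 CPM in replicates 1, 2 and 3, a mean of 5.12 ± 1.28 CPM, from 65, 83 and 52 counts. The counting intervals of replicates 1 and 3, 4.28 to 7.06 CPM and 2.75 to 4.83 CPM, overlapped, and those of replicates 2 and 3 did not, as replicate 2 had 4.88 to 7.60 CPM. Per kilobase of exon Grik4 was at 0.858 ± 0.214 CPM, above 10.4% of detected genes. It was still well above the limit that a count of 0 allows.

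The auxiliary genes Neto1 and Neto2 were each more abundant than any pore-forming subunit. Neto1 had 267, 272 and 292 CPM in replicates 1, 2 and 3, a mean of 277 ± 12.9 CPM, the tightest of the 7 genes with a coefficient of variation of 4.66%. Neto2 had 242, 186 and 210 CPM, a mean of 212 ± 28.1 CPM, and replicate 2 was the lowest library. By counts the ranges of the Neto genes did not overlap. Per kilobase of exon they did, at 33.1 ± 1.54 CPM for Neto1 and 34.7 ± 4.59 CPM for Neto2, above 90.5% and 91.0% of detected genes.

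**Figure D1:**
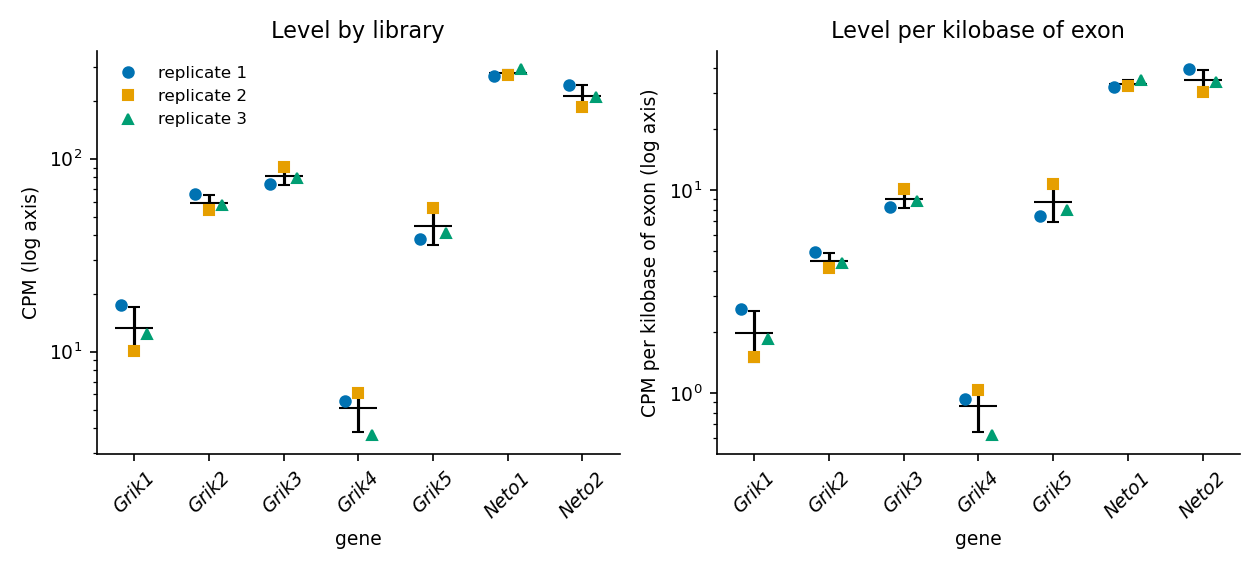
Level of each gene in each library (coloured points), with the mean and SD over 3 libraries (black bars), as CPM on the left and CPM per kilobase of exon on the right, both on log axes. Both Neto genes lie above every Grik gene on either scale, Grik4 is the lowest at 5.12 CPM, and Grik5 draws level with Grik3 once levels are divided by exon length.

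The subunits were set against each other within each library, where differences in depth cancel, as log2 ratios of counts per kilobase of exon with a prior count of 2. A pair was said to differ beyond the spread when the ratio had the same sign in 3 of 3 libraries and its mean was at least 2 SD of the 3 ratios. The smallest p that a two-sided exact sign-flip test over 3 libraries can give is 0.25, and each such pair had that value. The order was Grik3, Grik5, Grik2, Grik1 and Grik4, and of the 10 pairs 9 differed beyond the spread. The exception was the leading pair, as Grik3 over Grik5 was 0.14, -0.09 and 0.15 in replicates 1, 2 and 3 (mean 0.07 ± 0.14 SD, n = 3). Grik5 was above Grik2 by 1.93-fold (Grik2 over Grik5, log2 ratio -0.95 ± 0.40), Grik2 above Grik1 by 2.29-fold (Grik1 over Grik2, log2 ratio -1.19 ± 0.25), and Grik1 above Grik4 by 2.26-fold (log2 ratio 1.17 ± 0.55). Grik3 exceeded Grik4 by 10.5-fold, a log2 ratio of 3.39 ± 0.36.

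The order at the top depended on the length assigned to each gene, and the order at the bottom did not. With counts alone, or per base of coding sequence, Grik2 was above Grik5 (log2 ratio 0.41 ± 0.40 and 0.52 ± 0.40), and it was below Grik5 with union exon length or with the longest coding transcript (log2 ratio -0.91 ± 0.40). Grik3 over Grik5 was 0.87 ± 0.14 by counts and 0.96 ± 0.14 by coding length, and -0.39 ± 0.14 with the longest coding transcript. Grik2 was below Grik3 under all 4 settings, beyond the spread only with union exon length (log2 ratio -1.02 ± 0.28). The 7 pairs that hold Grik1 or Grik4 kept their direction and stayed beyond the spread under all 4 settings, so that Grik1 came next to last and Grik4 last in each. The sizes moved more than the directions: Grik2 exceeded Grik1 by 4.51-fold by counts, 4.72-fold by coding length and 1.75-fold with the longest coding transcript, and Grik1 exceeded Grik4 by 4.10-fold with the longest coding transcript. Grik3 exceeded Grik4 by 15.7-fold by counts and 16.4-fold by coding length.

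**Figure D2:**
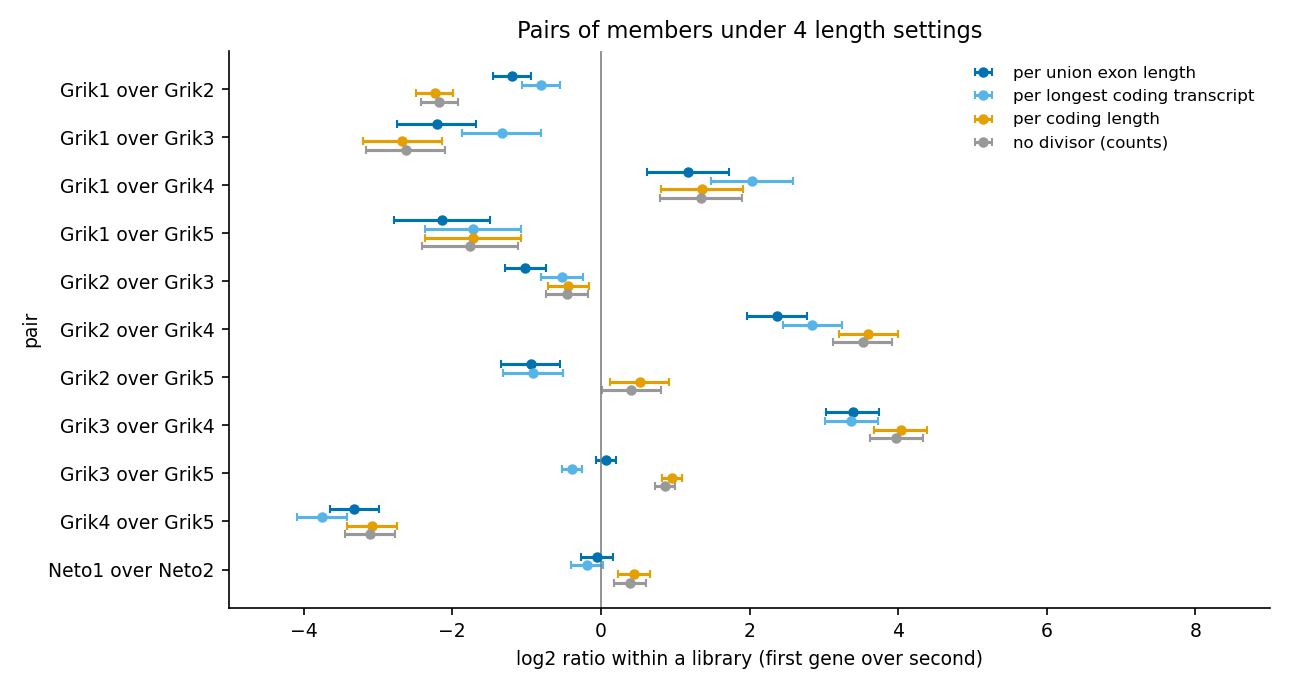
Mean log2 ratio within a library for the 10 pairs of Grik genes and for Neto1 over Neto2, with the SD over 3 libraries as bars and a colour for each length setting. Pairs with Grik1 or Grik4 stay on 1 side of 0, whereas Grik2 over Grik5, Grik3 over Grik5 and Neto1 over Neto2 change side with the length used.

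As shares of the 5 subunits per kilobase of exon, Grik3 made up 36.1% ± 1.77 (SD, n = 3), Grik5 34.5% ± 4.17, Grik2 17.98% ± 2.79, Grik1 8.001% ± 2.61 and Grik4 3.40% ± 0.681. By counts the shares were 39.8% ± 2.66 for Grik3, 29.2% ± 3.78 for Grik2, 21.9% ± 3.28 for Grik5, 6.57% ± 1.99 for Grik1 and 2.49% ± 0.518 for Grik4. The share of Grik1 was 10.7%, 5.49% and 7.82% per kilobase in replicates 1, 2 and 3, and that of Grik5 was 30.8%, 39.0% and 33.6%. Replicate 1 thus held the largest share of Grik1 and the smallest of Grik5, and replicate 2 the reverse.

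**Figure D3:**
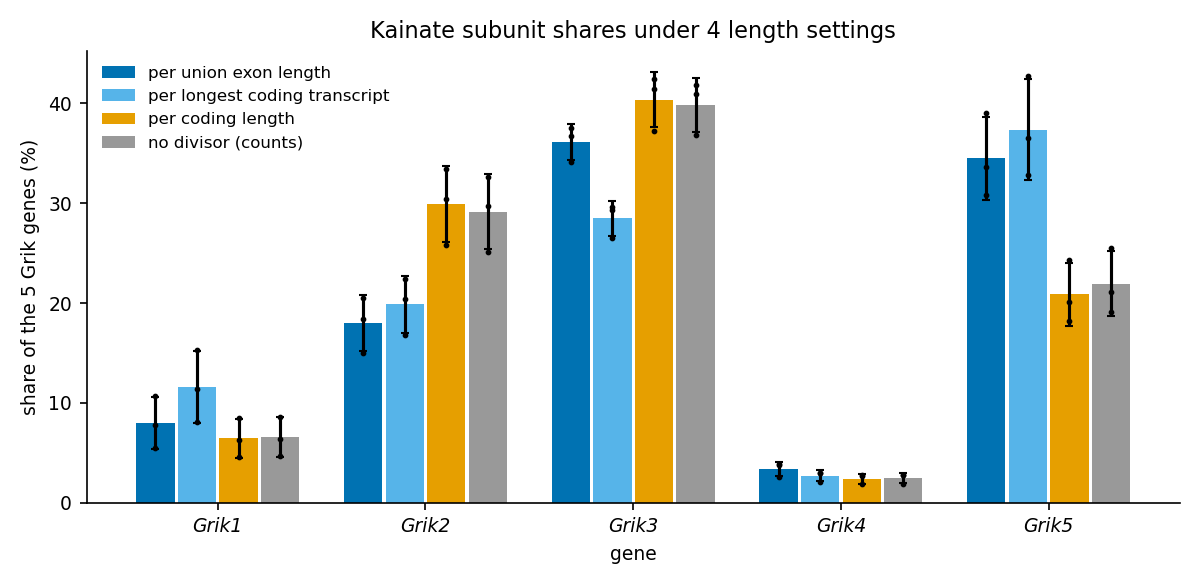
Share of each subunit among the 5 Grik genes in percent, as the mean over 3 libraries (bars), the SD (error bars) and each library (dots), with a colour for each length setting. Grik3 ranges from 28.5% to 40.4% and Grik5 from 20.9% to 37.4% over the settings, while Grik4 stays between 2.43% and 3.40%.

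Subunits that can form channels alone outweighed those that need a partner. The sum of Grik1, Grik2 and Grik3 over the sum of Grik4 and Grik5, per kilobase, was 0.91, 0.42 and 0.81 on the log2 scale in replicates 1, 2 and 3 (mean 0.71 ± 0.26, a ratio of 1.64), positive in 3 of 3 libraries. Replicate 2, with the most Grik5, had the smallest ratio. The ratio was 3.10 by counts and 3.30 by coding length, and with the longest coding transcript it was 1.497 and within 2 SD of equality (log2 0.58 ± 0.31). Nearly all of the lower sum was Grik5, which exceeded Grik4 by 9.96-fold per kilobase (Grik4 over Grik5, log2 ratio -3.32 ± 0.33).

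The Neto genes exceeded the summed kainate subunits. The Neto sum was 71.5, 62.8 and 69.1 CPM per kilobase in replicates 1, 2 and 3, against 24.2, 27.4 and 23.6 for the sum of the 5 Grik genes. The log2 ratio of the sums was 1.43 ± 0.21 (2.70-fold), positive in 3 of 3 libraries and beyond the spread, and the fold was 2.39 by counts, 2.23 with the longest coding transcript and 4.11 by coding length. Neto1 and Neto2 did not differ beyond the spread per kilobase (log2 ratio -0.06 ± 0.21), at -0.30, 0.10 and 0.03 in replicates 1, 2 and 3. By coding length Neto1 was above Neto2 beyond the spread (log2 ratio 0.44 ± 0.21). By counts Neto1 was above Neto2 in 3 of 3 libraries but not beyond the spread (log2 ratio 0.39 ± 0.21). RNA levels do not give the number of Neto proteins per receptor.

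Among the 16 genes of kainate, AMPA and NMDA receptors, the kainate family was a minor part. Per kilobase it supplied 9.52% ± 0.853 (SD, n = 3) of the total, the 4 AMPA receptor genes (Gria1 to Gria4, the main fast excitatory receptor) 74.1% ± 1.06, and the 7 NMDA receptor genes (calcium-permeable receptors that need glycine or serine as well as glutamate) 16.4% ± 0.688. The summed kainate genes were below the AMPA genes by 7.77-fold (log2 ratio -2.96 ± 0.15) and below the NMDA genes by 1.73-fold (log2 ratio -0.79 ± 0.15), each in 3 of 3 libraries and beyond the spread. The distance to the NMDA genes was 2.65-fold by counts. Per kilobase single genes overlapped between families, as Grik3 and Grik5 lay above Grin2b, at 6.66 ± 0.287 CPM per kilobase. That order depended on length: by counts Grin2b, at 165 CPM, lay above Grik3 at 81.3 CPM and Grik5 at 44.95 CPM. Neto1 and Neto2 lay within the range of the AMPA genes per kilobase, from 31.4 for Gria4 to 88.9 for Gria3.

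**Figure D4:**
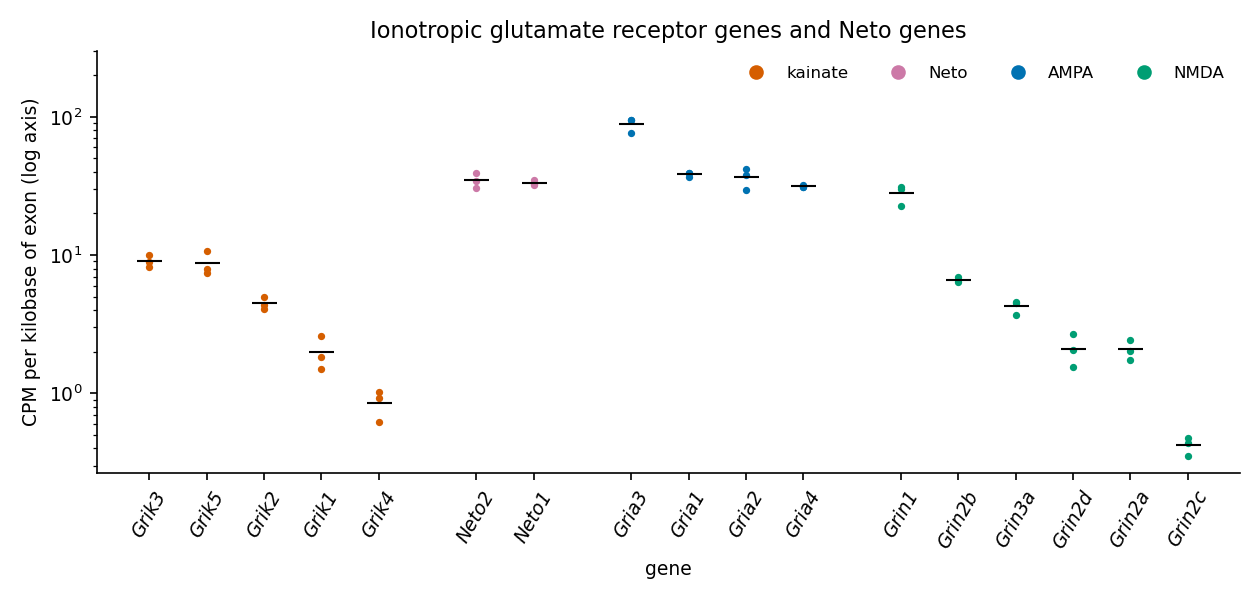
CPM per kilobase of exon (log axis) of the kainate, Neto, AMPA and NMDA receptor genes, with each library as a point and the mean as a black bar, ordered by level within a family (Grin3b, with 0 counts, is not drawn). The kainate genes span 0.858 to 9.06 and all lie below the 4 AMPA genes, whereas both Neto genes lie among them.

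Genes known to act on kainate receptors were largely present. The 23 partner genes covered scaffolds, trafficking and turnover proteins, the SUMO pathway, editing enzymes and secreted ligands. Of these, 22 were detected in all 3 libraries, as were 37.3% of all gene rows. The median was 12.9 CPM per kilobase over the 22 partner genes that had a length, against 4.79 over all detected genes. The highest was Nsf, an ATPase that recycles SNARE complexes, at 281 ± 33.7 CPM per kilobase, and the lowest was C1ql2, a secreted ligand of kainate receptors at hippocampal mossy fibre synapses, at 0.720 ± 0.615. C1ql2 had 2.81, 0.443 and 1.06 CPM in replicates 1, 2 and 3 and was the member not detected in every library. Its relative C1ql3 was at 14.99 ± 2.57 CPM per kilobase.

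Of the editing enzymes, Adarb1, whose product ADAR2 acts on the Q/R codon of Grik1 and Grik2, had 221, 223 and 197 CPM in replicates 1, 2 and 3, or 18.9 ± 1.26 CPM per kilobase. Adar, which encodes ADAR1, was at 13.7 ± 2.38 CPM per kilobase, and Adarb2, a relative without known editing activity, at 1.36 ± 0.254. Among PDZ scaffold proteins of the list, Sdcbp (syntenin) was at 41.3 ± 0.802 CPM per kilobase, Cask at 20.3 ± 1.48, Dlg4 (PSD-95) at 12.02 ± 1.61, Dlg1 (SAP97) at 6.66 ± 1.26, Grip1 at 4.80 ± 0.316 and Pick1 at 2.70 ± 0.615. Klhl24, known as a modulator of GluK2 receptors, was at 8.91 ± 0.648. Slc12a5, the chloride transporter KCC2, to which Neto2 binds, was at 58.96 ± 5.25 CPM per kilobase.

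Likeness of level was measured as the Euclidean distance in log2 CPM per kilobase over the 3 libraries, among 33 other receptor and partner genes with a length. The nearest gene was Klhl24 for both Grik3 (distance 0.0730) and Grik5 (0.269), Grip1 for Grik2 (0.205), the NMDA subunit gene Grin2d for Grik1 (0.520) and Adarb2 for Grik4 (1.30). The nearest gene was Snx27, which encodes an endosomal sorting protein, for Neto1 (0.0531) and Gria4 for Neto2 (0.332). Grik4 had no gene of these lists close to it. The distances were taken with union exon length only. By counts Klhl24 was at 90.7 CPM, against 81.3 CPM for Grik3 and 44.95 CPM for Grik5.

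None of the 7 genes was called as varying between libraries more than other genes of its level. All 7 passed the count filter, and 0 of 7 passed edgeR's quasi-dispersion test with Benjamini-Hochberg adjustment over 12509 genes, where 11 genes, or 0.0879%, passed (4 without replicate 2). At an unadjusted p under 0.05 there were 715 genes and 0 of the 7 members. Grik5 had the largest ratio of its dispersion to the trend, 2.06 (edgeR adjusted p = 0.98), followed by Neto2 at 1.92 and Grik1 at 1.60, and Neto1 had the smallest at 0.245. Over all genes the median ratio was 0.707.

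All 7 members spread more between libraries than counting error alone gives, as did 89.4% of the 12509 genes tested. The coefficient of variation between libraries was 28.0% for Grik1 against 7.62% from counting, 20.1% for Grik5 against 4.11%, 13.2% for Neto2 against 1.90%, and 24.9% for Grik4 against 12.2%. On the log2 scale Grik1, Grik2 and Neto2 were above their own mean in replicate 1 (0.42, 0.15 and 0.19) and below it in replicate 2 (-0.35, -0.12 and -0.19). Grik3 and Grik5 went the other way, with -0.13 and -0.20 in replicate 1 and 0.16 and 0.32 in replicate 2. Grik4 and Neto1 followed neither pattern, at 0.15, 0.28 and -0.43 and at -0.05, -0.03 and 0.08 in replicates 1, 2 and 3. In replicates 1, 2 and 3 the median deviation was 0.17, -0.08 and -0.05 for the 7 GABAergic marker genes and -0.23, 0.12 and 0.15 for the 5 glutamatergic ones, with sums of 2275, 2107 and 2485 CPM and of 5960, 7254 and 7985 CPM. The GABAergic members did not move together, as Sst was at 429, 551 and 895 CPM and Pvalb at 195, 117 and 99.9 CPM, and Sst was among the 11 genes called as varying (edgeR adjusted p = 0.0281). Other marker lists shifted more in replicate 1. The median deviation there was -0.59 for oligodendrocyte precursor, -0.36 for microglial, -0.31 for astrocyte and 0.78 for the scarce endothelial genes. Pan-neuronal and oligodendrocyte genes shifted less, at -0.09 and -0.06. The nuclear RNA Malat1 was at 8782, 2578 and 1801 CPM in replicates 1, 2 and 3. The part of these differences between libraries in the spread of the kainate and Neto genes was not tested.

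**Figure D5:**
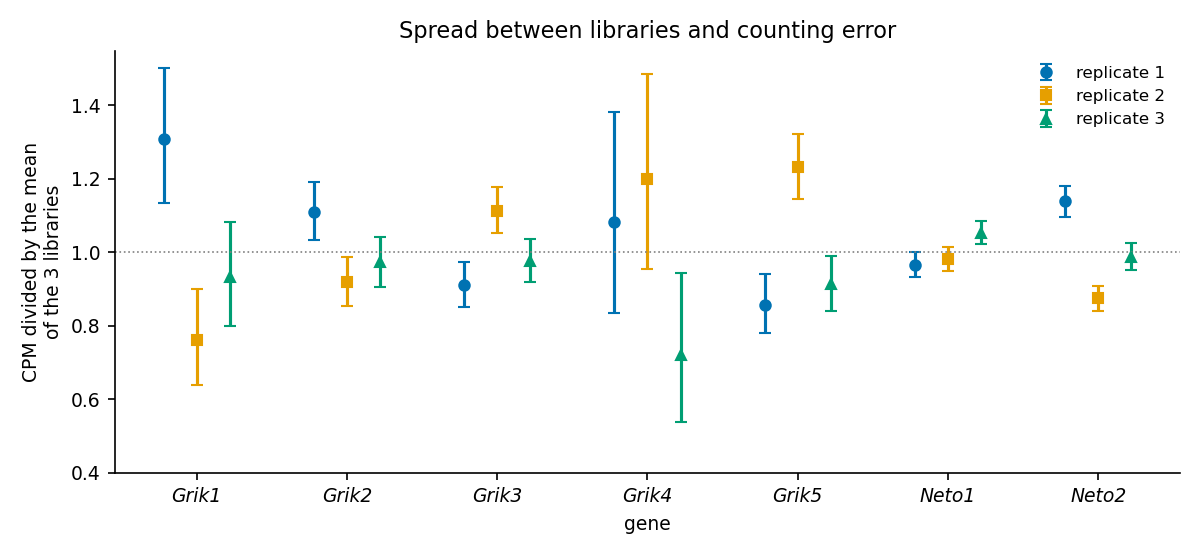
CPM of each gene in each library divided by its mean over the 3 libraries, with exact 95% Poisson intervals as bars, which cover counting error only. Replicate 1 is high for Grik1, Grik2 and Neto2, replicate 2 is high for Grik3 and Grik5, and the intervals are widest for Grik4, which had 52 to 83 counts.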

How the data were processed

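Each library has a deposited table of raw read counts by gene symbol. The tools named per the submitters' processing notes are STAR 2.0.0e and HTSeq, and the build is mm10. The counting mode, strand setting and annotation release were not found in the labels or headers used here. Rows that name no gene held 38.1%, 32.4% and 29.3% of tallied reads in replicates 1, 2 and 3 and were left out. No library repeats another: divided by its degrees of freedom, the chi-square of each pair was 12.3 to 28.5.

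CPM used TMM library sizes (edgeR 4.0.16, R 4.3.3). Union exon lengths, positions and transcripts came from GENCODE M21 on GRCm38, which mm10 names; 93.7% of the 12509 genes past the count filter (filterByExpr, minimum count 10) had a length, matched by symbol. The annotation used for counting may differ from it, and a union length can exceed that of the expressed transcript. Coding sequences were aligned in pairs with MAFFT 7.526. Variation between libraries was tested with glmQLFit (robust, intercept only), as the F ratio of each quasi-dispersion over its fitted trend. The procedure was also run on simulated data, with changes larger than the members' 1.09-fold to 1.72-fold ranges between libraries. That run does not say how often differences as small as theirs would be called.

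The members and lists were chosen with earlier results of these data known. Named genes are all members, the highest and lowest of a list per kilobase, genes given a role, and the nearest gene in level. Alternatives were other lengths, scalings, filters and prior counts, and leaving out each library. One planned comparison with a further receptor family is not reported here.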

Additional observations from a re-analysis of the deposited data

How the results depend on the processing

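Length was the choice that mattered most. Grik2 over Grik5, called below 0 per kilobase of exon, turned to a log2 ratio of 0.41 with no length divisor and 0.52 with coding length. With no length divisor the log2 ratio was -3.19 for kainate over AMPA, -1.40 for kainate over NMDA and 1.63 for GluK1-3 over GluK4-5. With coding length these were -3.26, -1.12 and 1.72, and Neto over kainate was 2.04. With the longest coding transcript the ratios were -3.24 for kainate over AMPA, -1.37 for kainate over NMDA and 1.15 for Neto over kainate. All of these family and class ratios kept their sign, unlike Grik2 over Grik5. The count of genes that varied between libraries was 66 with no count filter, 5 with non-robust moderation, and 4 to 9 with a library left out. No member passed under any of these settings (edgeR adjusted p 0.938 to 0.999). All 7 members were detected at 0.5 CPM, and 6 at 5 CPM, without Grik4. Of all 32531 gene rows, 12981 were detected at 0.5 CPM and 9405 at 5 CPM. A prior count of 0.5 and leaving out a library changed no sign among the family and class ratios. No paired analysis was possible because there is 1 group. Depth limits Grik4 most, with 52 to 83 counts in a library, and without an input library background RNA in the immunoprecipitate cannot be separated from expression in tagged cells.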
